A study of Mus musculus with 12 samples.

Results

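Livers of mice given HYA were compared with livers of mice given linoleic acid (LA), the fatty acid from which HYA is made, for the 11083 genes, of 54532 listed, whose mean level over the 12 livers of the study reached 1 FPKM. FPKM is the number of sequenced fragments of a gene per kilobase of its length, scaled to the size of the library. The comparison rests on 6 of the 12 livers, 3 mice fed a high-fat diet (HFD32) containing 1% HYA and 3 mice fed the same diet containing 1% LA. The other 6 livers came from 3 mice on the high-fat diet with no supplement (control) and 3 mice on a normal diet (ND, CE-2). Mice of the 4 groups were male C57BL/6J animals that were 5 weeks old at the start and were kept on their diets for 26 weeks. Fatty acids were mixed into the feed, so that the amount each animal took in is not known from the labels, and each library came from the liver of 1 mouse. HYA and LA were given at 1 dose and sampled at 1 time, which makes a single pair of compounds at matched dose and time.

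LA is an essential polyunsaturated fatty acid of the diet. Lactic acid bacteria of the gut add water across a double bond of LA and thereby make HYA, which carries a hydroxyl group in place of that double bond. In liver, fatty acids serve as fuel, as building blocks of triglycerides and membranes, and as ligands of nuclear receptors such as PPARα that control genes of fatty acid breakdown. A prolonged high-fat diet is known to fill hepatocytes with fat, to induce genes of cell injury and extracellular matrix, and to lower many genes that are normally more abundant in male than in female liver. The last of these depend on the pulses of growth hormone that males release, and they include major urinary proteins, steroid-metabolizing cytochrome P450 enzymes and organic anion transporters.

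Between 18355799 and 25220880 fragments per HYA liver and between 20267932 and 20950700 per LA liver fell on genes. Correlations of log2(FPKM + 1) across genes were 0.986 to 0.989 between HYA livers, 0.987 to 0.99 between LA livers and 0.976 to 0.989 between livers of the 2 groups. The FPKM of all genes summed to 380803 to 393109 in HYA livers and to 352290 to 361523 in LA livers, so that the columns do not share a total, and some results below are also given as TPM, which sets all totals equal. Albumin (Alb), the defining product of hepatocytes, was present at 24200 to 24900 FPKM in HYA livers and 21000 to 22000 FPKM in LA livers. In whole tissue, fewer cells of a type and less RNA per cell cannot be told apart.

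Few genes differed between HYA and LA livers by the adjusted threshold, whereas 1908 of the 11083 had an unadjusted limma p under 0.05. Genes that were higher with HYA included Cyp2c54, a cytochrome P450, Serpina1e, a secreted serine protease inhibitor, and Ces3b, a carboxylesterase. Genes that were lower included Ly6d and Sprr1a, which are known from epithelia, the calcium-binding protein genes S100a11 and Anxa2, and the cytochrome P450 genes Cyp2b9 and Cyp2b13. Past an adjusted p of 0.05 (limma, Benjamini-Hochberg over the 11083 genes) and an absolute log2 fold change of 1, 3 genes (0.0271%) were higher and 9 (0.0812%) were lower with HYA than with LA. By the adjusted p alone, 26 genes (0.235%) were higher and 28 (0.253%) were lower, and "rose" and "fell" refer below to these 54 genes. The 3 values of one group lay entirely above the 3 of the other for 1636 genes that were higher (14.8%) and 1157 that were lower (10.4%), among them each of the 54. The counts changed with single animals, and 0 genes passed without HYA mouse 2, without LA mouse 1 or without LA mouse 2, with 1302, 1250 and 1700 genes at an unadjusted limma p under 0.05. The counts of every gene list below were then 0 as well. At the shares of 0.235% and 0.253% over all genes, a short list can hold 0 by its size alone. Counts of list members without overlap stand beside 14.8% higher and 10.4% lower over all genes. The log2 fold changes moved less, and over the 20 other settings that of C8b, a complement gene, stayed between 0.85 and 0.99, that of Cyp2c54 between 1.94 and 2.2 and that of Ly6d between -2.45 and -2.10. The counts past both thresholds became 4 and 4 without HYA mouse 1, 2 and 3 without HYA mouse 3 and 2 and 2 without LA mouse 3. The mice of the other diets enter through the shared estimate of the spread, and the counts were 15 and 14 when control mouse 1 was left out, 12 and 14 for control mouse 2, 2 and 1 for ND mouse 2 and 2 and 4 for ND mouse 3. Both were 0 in a fit of the 9 livers on the high-fat diet, with 1890 genes at an unadjusted p under 0.05. With TPM the calls by adjusted p became 31 higher and 134 lower, a share of higher genes of 18.8% against 48.1% with FPKM, and the median log2 fold change of all genes moved from 0.01 to -0.10.

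**Figure D1:**
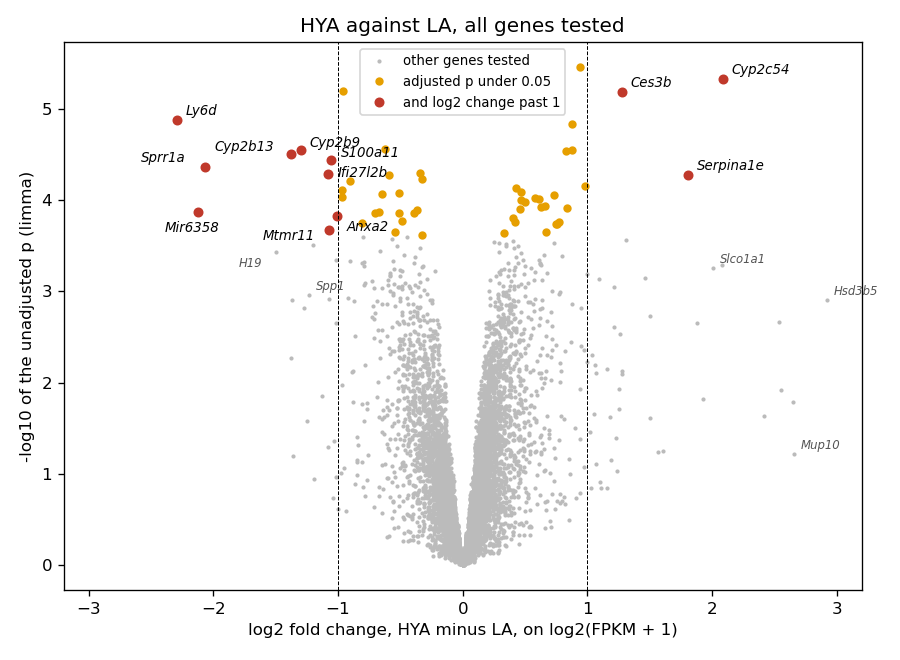
Log2 fold change of HYA against LA on log2(FPKM + 1) (horizontal axis) and -log10 of the unadjusted limma p (vertical axis) for the 11083 genes tested, 1 point per gene, with dashed lines at a log2 fold change of -1 and 1. Of the 54 genes past the adjusted threshold (orange and red), 12 also pass a log2 fold change of 1 (red, named), whereas Hsd3b5 and Mup10, among the genes named in grey, lie farther to the right without passing.

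Cyp2c54 (chr19:40037941-40073811, GRCm38) encodes a member of the Cyp2c family, whose enzymes oxidize arachidonic acid, LA and drugs. It was present at 43.1, 62.2 and 48 FPKM in the HYA livers and at 10.2, 10.6 and 12.7 FPKM in the LA livers. The groups did not overlap, and the mean was 4.58-fold higher with HYA (log2 fold change 2.09, 95% interval 1.54 to 2.64, limma adjusted p = 0.0183). Control livers had 4.97 to 12.0 FPKM, and ND livers 177 to 203 FPKM.

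Ces3b (chr8:105083753-105093929) is one of the carboxylesterases of the hepatocyte endoplasmic reticulum that cleave lipid esters. Its 3 HYA livers were at 127, 120 and 112 FPKM and its 3 LA livers at 46.9, 55.7 and 44.3 FPKM. The mean was 2.44-fold higher with HYA (log2 fold change 1.28, 0.93 to 1.62, limma adjusted p = 0.0183), again without overlap. The neighbouring Ces3a, which is related in sequence, rose as well and by less, with a log2 fold change of 0.46 (0.29 to 0.64, limma adjusted p = 0.038).

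Serpina1e (chr12:103946931-103958975) belongs to the α1-antitrypsin genes of the mouse. HYA livers had 59.7, 91.0 and 106 FPKM and LA livers 23.4, 29.4 and 17.7 FPKM, a 3.64-fold higher mean with HYA (log2 fold change 1.81, 1.19 to 2.43, limma adjusted p = 0.035). Every HYA liver stood above every LA liver, and all 6 stood far below the 3010 to 3760 FPKM of the ND livers. Its near relative Serpina1a, a major plasma protease inhibitor, differed by 0.43 (0.18 to 0.67, limma adjusted p = 0.0907). Reads of these relatives may be shared, and how the counting assigned such reads is not stated.

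**Figure D2:**
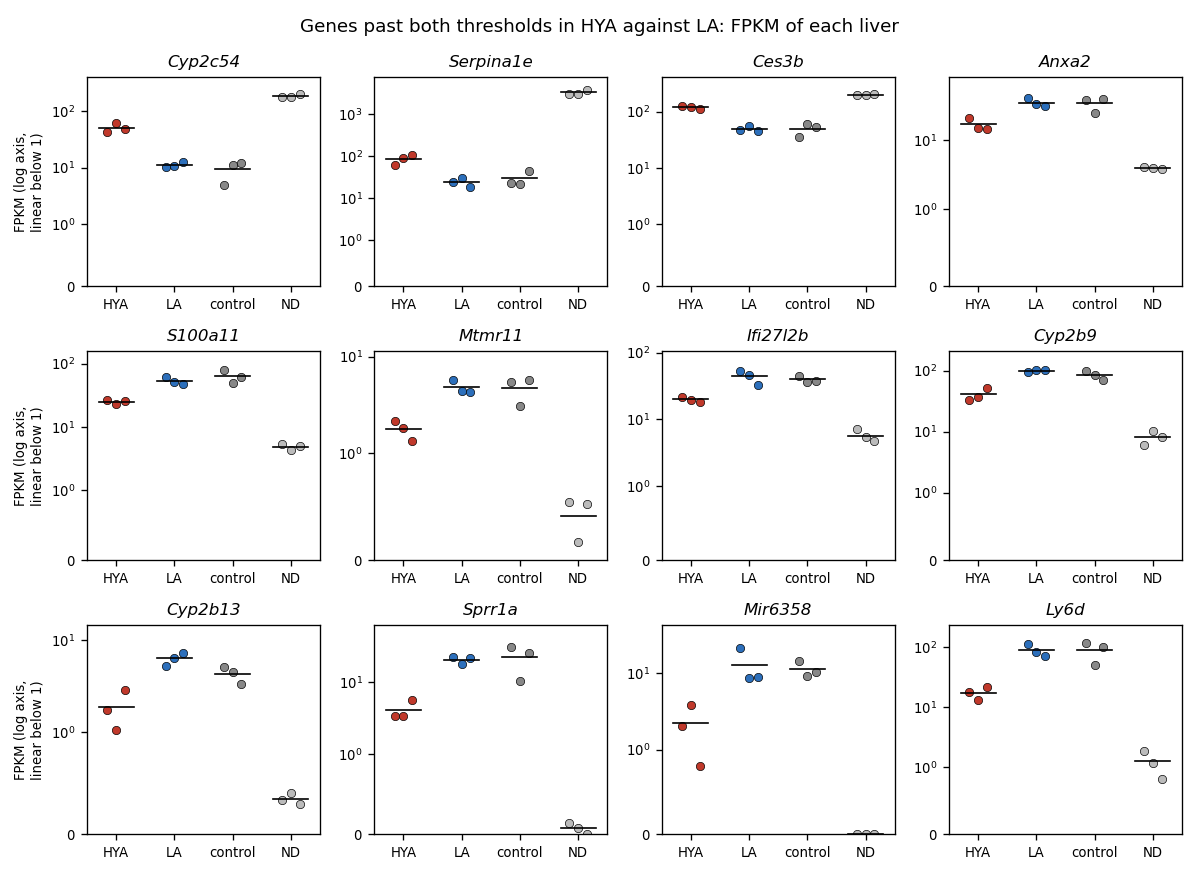
FPKM of each liver (log axis, linear below 1) for the 12 genes past both thresholds, ordered by log2 fold change, with the HYA, LA, control and ND groups side by side, points for single livers and a line at the mean of 3. The HYA and LA points do not overlap in any panel, and the HYA mean of each gene lies between the LA mean and the ND mean.

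Genes more abundant in male than in female liver had the highest median log2 fold change of the 49 gene lists with a tested member. Of 33 tested, 3 rose (Cyp2c54, Serpina1e and Susd4), 0 fell, and 24 had non-overlapping ranges with HYA higher. With voom 7 rose, in the fit of the 6 HYA and LA livers 11 and with a replicate block 12, while 11 and 10 rose without control mouse 1 and 2, and 1 rose when any of the 3 ND mice or HYA mouse 3 was left out. The median log2 fold change was 0.67, against 0.01 for all genes tested. The mean log2(FPKM + 1) of these genes was 5.87, 6.29 and 6.31 in HYA livers and 4.93, 5.07 and 5.16 in LA livers, with control livers at 4.26 to 5.24 and ND livers at 7.16 to 7.54. Susd4, a membrane regulator of complement, had a log2 fold change of 0.67 (0.4 to 0.94, limma adjusted p = 0.0477).

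Other male-biased genes differed by more but varied more between animals. Hsd3b5, a 3β-hydroxysteroid dehydrogenase of male liver, was at 1.4, 17 and 22.4 FPKM with HYA and at 0.182, 0.363 and 0.434 FPKM with LA. One HYA liver thus stood far below the other 2, though above the LA livers, and the log2 fold change of 2.92 (1.43 to 4.41) did not pass the threshold (limma adjusted p = 0.072). Slco1a1, a transporter of bile acids and steroid conjugates, was at 36.6, 49.7 and 57.4 FPKM with HYA and at 9.02, 11.1 and 13 FPKM with LA. Its log2 fold change was 2.01 (1.09 to 2.93, limma adjusted p = 0.062). Serpina4-ps1, a transcribed pseudogene, differed by 2.08 (1.14 to 3.01, limma adjusted p = 0.0618).

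Major urinary proteins are small pheromone carriers that male mouse liver secretes in bulk, encoded by a cluster of near-identical genes. Of 18 Mup genes tested, 16 had a positive log2 fold change and 15 had non-overlapping ranges with HYA higher, but 0 passed the adjusted threshold (lowest limma adjusted p 0.0643), and the median log2 fold change was 1.21. Their summed level is less exposed to the assignment of shared reads, and it was 7590, 8710 and 11300 FPKM in HYA livers and 5290, 5400 and 5410 FPKM in LA livers, with 13400 to 20200 FPKM in ND livers. Mup7 was at 541, 1170 and 1120 FPKM with HYA and at 129, 180 and 148 FPKM with LA. Mup10 stood out in a single liver, at 2.15, 248 and 2.79 FPKM with HYA and at 0.843, 1.65 and 1.42 FPKM with LA. Mup16 was low in a single LA liver, at 15.4, 295 and 388 FPKM against 511, 575 and 977 FPKM with HYA. Mup20, a pheromone that the family includes, had ranges that overlapped and a log2 fold change of -0.29 (-0.72 to 0.13, limma adjusted p = 0.477).

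**Figure D3:**
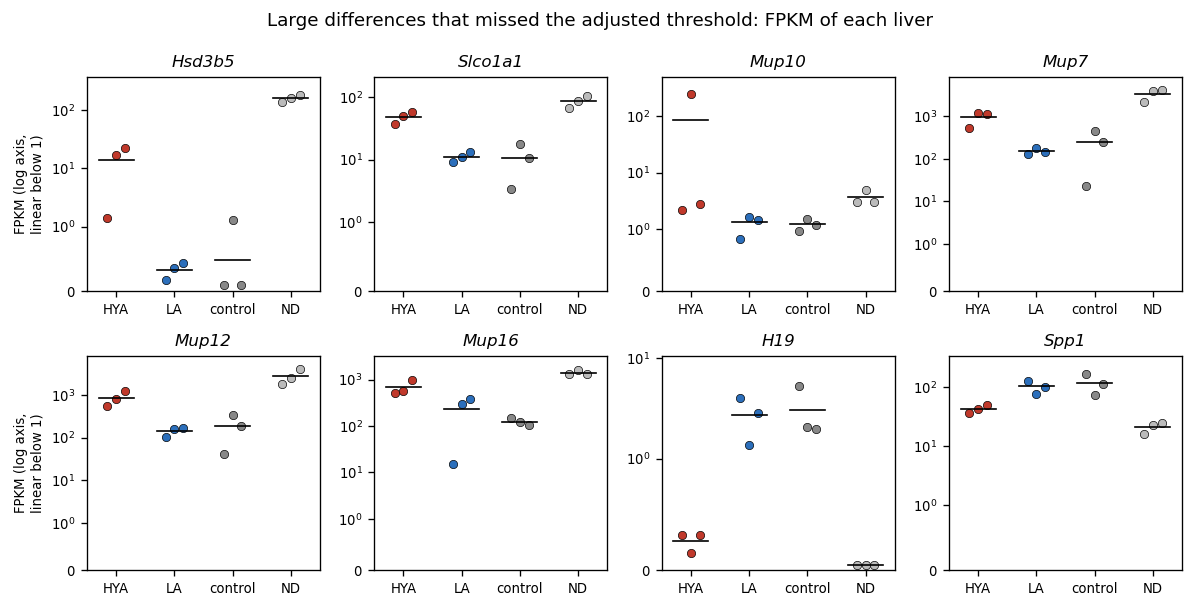
FPKM of each liver (log axis, linear below 1) for 8 genes whose HYA and LA ranges did not overlap and whose log2 fold change was past 1 or -1 while the adjusted threshold was missed, with points for single livers and a line at the mean of 3. The high mean of Mup10 with HYA comes from 1 liver at 248 FPKM, and 1 LA liver of Mup16 lies at 15.4 FPKM.

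In a list of the growth hormone axis and of cytokine receptors such as Lifr, 2 of 22 tested genes rose and 0 fell. The median log2 fold change was 0.25, and 9 genes had non-overlapping ranges, each higher with HYA. Of the 22, 16 had a positive and 6 a negative log2 fold change. Lifr, the receptor of leukaemia inhibitory factor and not of growth hormone, was at 24.1, 21.5 and 17.9 FPKM with HYA and at 8.97, 12.5 and 11.9 FPKM with LA (log2 fold change 0.88, 0.6 to 1.16, limma adjusted p = 0.0317). Igfals, the acid-labile subunit that holds IGF-1 in the circulation, differed by 0.58 (0.37 to 0.79, limma adjusted p = 0.0365). The growth hormone receptor Ghr itself was at 56.1, 63.3 and 66.1 FPKM with HYA against 46.5, 50.5 and 54.2 FPKM with LA (0.29, 0.09 to 0.49, limma adjusted p = 0.135). Igf1 and Socs2, which growth hormone induces through STAT5, differed by 0.4 (limma adjusted p = 0.079) and 0.77 (limma adjusted p = 0.0703).

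Among 12 tested genes that are more abundant in female liver, 3 fell, namely Cyp2b9, Cyp2b13 and Rtn4, and 0 rose. Positive and negative log2 fold changes were equally frequent, with 6 genes each, and the median was -0.08. Another 2 genes had non-overlapping ranges with HYA higher, Cyp39a1, a hydroxylase of bile acid synthesis (0.35, 0.01 to 0.68, limma adjusted p = 0.274), and Cyp4a14, a fatty acid hydroxylase (0.42, -0.18 to 1.03, limma adjusted p = 0.471). Cyp2b9 was at 33.5, 36.8 and 52.2 FPKM with HYA and at 95.2, 101 and 104 FPKM with LA, a 2.45-fold higher mean with LA (log2 fold change -1.30, -1.71 to -0.88, limma adjusted p = 0.0317). Cyp2b13 was far less abundant, at 1.73, 1.06 and 2.85 FPKM with HYA and 5.25, 6.4 and 7.2 FPKM with LA (log2 fold change -1.38, -1.82 to -0.93, limma adjusted p = 0.0317). HYA and LA livers did not overlap for either gene, and ND livers were at 6.1 to 10.1 FPKM for Cyp2b9 and 0.297 to 0.403 FPKM for Cyp2b13. Cyp2a4, a steroid hydroxylase of female liver, was at 4.18, 9.97 and 14.6 FPKM with HYA and at 9.07, 22.2 and 26.5 FPKM with LA, with overlap between the groups (-0.95, -2.07 to 0.16, limma adjusted p = 0.366). Rtn4, which encodes the Nogo proteins, had a log2 fold change of -0.49 (limma adjusted p = 0.0411).

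Cyp2b9 and Cyp2b13 lie near each other on chromosome 7 (Cyp2b9 at chr7:26173411-26210661, Cyp2b13 at chr7:26061497-26096197). Their RefSeq promoters, 250 bases before and 50 after the start site on GRCm38.p6, had the same base at 298 of 300 positions. Their transcripts were not compared. Reads of these relatives may be shared, and how the counting assigned such reads is not stated, so both calls may not be independent. The stretch that holds both differing bases is shown from chr7:26173186-26173282 for Cyp2b9 and from chr7:26061272-26061368 for Cyp2b13 (plus strand). Capitals mark the differing bases, T21C and C77T counted from the first base shown with the Cyp2b9 base first.
Cyp2b9: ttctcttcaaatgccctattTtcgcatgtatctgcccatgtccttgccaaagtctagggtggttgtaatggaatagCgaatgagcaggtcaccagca
Cyp2b13: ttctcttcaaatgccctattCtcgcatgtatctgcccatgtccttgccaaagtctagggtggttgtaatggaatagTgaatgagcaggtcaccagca

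Among 26 tested genes that injured or regenerating epithelial cells are known to switch on, 6 fell with HYA (Ly6d, Sprr1a, S100a11, Anxa2, Lgals1 and Tuba1a) and 0 rose. Log2 fold changes were negative for 22 and positive for 4, and ranges did not overlap for 17 that were lower and 1 that was higher. With TPM, voom or a replicate block 10 fell, as without control mouse 2, whereas 3 fell without ND mouse 1, ND mouse 3 or HYA mouse 1, and 1 without ND mouse 2, HYA mouse 3 or LA mouse 3. The median log2 fold change of -0.6 was the lowest of the lists examined with at least 1 tested gene. Ly6d (chr15:74762056-74763620), a small lipid-anchored surface protein, was at 18.2, 13.1 and 21.4 FPKM with HYA and at 115, 83.3 and 71.7 FPKM with LA. Its mean was 5.13-fold higher with LA (log2 fold change -2.29, -2.97 to -1.62, limma adjusted p = 0.0268), with controls at 51 to 116 FPKM and ND livers at 0.823 to 1.91 FPKM. Sprr1a (chr3:92483952-92485895), a small proline-rich protein that is cross-linked beneath the membrane of squamous epithelia, was at 3.39, 3.35 and 5.62 FPKM with HYA and at 22, 17.6 and 21.1 FPKM with LA. Its log2 fold change was -2.07 (-2.77 to -1.38, limma adjusted p = 0.035), and ND livers had at most 0.141 FPKM.

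S100a11 (chr3:93520488-93526287) and Anxa2 (chr9:69453620-69491795) encode a calcium-binding S100 protein and an annexin that binds membranes. S100a11 was at 26.9, 22.6 and 25.3 FPKM with HYA and at 62.1, 50.2 and 47.6 FPKM with LA (log2 fold change -1.06, -1.41 to -0.71, limma adjusted p = 0.0335). Anxa2 was at 21.0, 15.1 and 14.7 FPKM with HYA and at 40.6, 33.5 and 30.8 FPKM with LA (log2 fold change -1.01, -1.41 to -0.62, limma adjusted p = 0.0397). In both, the highest HYA liver lay below the lowest LA liver. Lgals1, which encodes galectin-1, and the tubulin gene Tuba1a fell by 0.65 and 0.62 on the log2 scale (limma adjusted p = 0.0365 and 0.0317). Tnfrsf12a, the receptor of TWEAK, differed by -1.20 and missed the threshold (limma adjusted p = 0.0527). The keratin pair of hepatocytes, Krt8 and Krt18, each differed by -0.58 (limma adjusted p = 0.0626). Cdkn1a, the cell cycle inhibitor p21, overlapped between the groups at 4.43, 2.06 and 2.66 FPKM with HYA against 11.2, 8.72 and 3.37 FPKM with LA.

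RefSeq promoters were read for 8 of the 12 genes past both thresholds, 2 higher and 6 lower with HYA. Ly6d, Cyp2c54, Ifi27l2b and Mir6358 were not among them. The letters TGANTCA, the binding element of AP-1, which read the same on both strands, were found in 3 of the 6 lower genes and 0 of the 2 higher genes, in 5.17% of the 10499 promoters of tested genes and in 7.81% of all 32851 promoters of that length. The elements of STAT factors (TTCNNNGAA, in 6.69% of promoters of tested genes and 8.3% of all) and of DR1 receptors (a direct repeat of AGGTCA with 1 base of any kind between, in 0.0286% and 0.0396%), searched on both strands, were in 0 of the 8. The 3 promoters that hold the AP-1 letters belong to injury genes described above and are shown around them, in capitals, from chr3:93520340-93520484 (S100a11, plus strand), chr3:92485971-92486047 (Sprr1a, minus strand) and chr9:69453568-69453614 (Anxa2, plus strand).
S100a11: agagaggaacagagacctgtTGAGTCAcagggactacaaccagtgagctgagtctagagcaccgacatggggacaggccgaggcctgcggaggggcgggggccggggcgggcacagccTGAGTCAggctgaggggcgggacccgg
Sprr1a: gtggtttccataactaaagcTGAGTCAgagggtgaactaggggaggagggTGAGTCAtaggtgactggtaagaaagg
Anxa2: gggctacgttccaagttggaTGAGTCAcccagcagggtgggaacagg
The elements begin 136 and 38 bases before the start site of S100a11, 146 and 116 bases before that of Sprr1a, and 95 bases before that of Anxa2. A match of letters is a description of the sequence and shows no binding. Immediate early genes, the family that includes the AP-1 subunits, had 0 of 14 tested genes past the threshold and a median log2 fold change of -0.17. Fos was at 0.746, 1.13 and 0.98 FPKM with HYA and at 2.43, 1.08 and 1.14 FPKM with LA (limma adjusted p = 0.47).

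The other 3 lower genes past both thresholds belong to no common group. Ifi27l2b (chr12:103450898-103457223), a member of the Ifi27 family of mitochondrial proteins, was at 21.9, 19.7 and 18 FPKM with HYA and at 52.5, 46 and 33.2 FPKM with LA (log2 fold change -1.08, limma adjusted p = 0.035). It was the single gene to pass of the 33 tested in the list of interferon-stimulated genes, whose median was -0.05. Samd9l, another gene that interferon induces, was outside that list and fell with -0.39 (limma adjusted p = 0.038). Mtmr11 (chr3:96162004-96171718), a myotubularin-related phosphatase family gene, was at 2.14, 1.84 and 1.35 FPKM with HYA and at 5.68, 4.43 and 4.32 FPKM with LA (log2 fold change -1.07, limma adjusted p = 0.0471). Mir6358, an annotated microRNA gene on chromosome 18, was counted by few fragments, 4, 7 and 2 in the HYA livers and 46, 19 and 20 in the LA livers. It was listed at 0 in the 3 ND livers, and its log2 fold change of -2.12 (-2.93 to -1.31, limma adjusted p = 0.038) concerns fragments on the annotated gene and not the mature microRNA, which libraries of this kind do not measure.

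Genes of the extracellular matrix, which activated stellate cells deposit in scar tissue, had negative log2 fold changes in most cases, yet none of the collagen, glycoprotein or remodelling genes tested passed the adjusted threshold. With TPM 1 collagen, 5 glycoprotein and 2 remodelling genes passed as lower, with voom 3, 5 and 1, and with a replicate block 5, 5 and 2. Without control mouse 1 the counts were 3, 5 and 1 and without control mouse 2 they were 5, 5 and 2, while 1 glycoprotein gene passed in the fit of the 6 HYA and LA livers and without ND mouse 1. Of 16 tested collagen genes, 0 passed, 14 had a negative log2 fold change, 10 had non-overlapping ranges with HYA lower, and the median was -0.38. Col1a1, a chain of the fibrillar type I collagen, was at 4.94, 3.08 and 5.01 FPKM with HYA and at 11.2, 8.04 and 7.98 FPKM with LA (log2 fold change -0.92, -1.39 to -0.46, limma adjusted p = 0.0715). Col3a1, the chain of type III collagen, was at 10.7, 8.31 and 9.77 FPKM against 19.6, 14.8 and 15.5 FPKM (-0.73, -1.08 to -0.38, limma adjusted p = 0.0663). Control livers had means of 10.7 and 18 FPKM, and ND livers of 0.978 and 2.97 FPKM. The mean log2(FPKM + 1) of the collagen list was 2.68, 2.5 and 2.58 in HYA livers and 3.15, 2.83 and 2.92 in LA livers, without overlap.

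Of 25 matrix glycoproteins and proteoglycans, 0 passed, and 14 were lower and 1 higher with HYA without overlap (median -0.21). Nid1, which links laminin to collagen IV in basement membranes, had the lowest adjusted p among them, with a log2 fold change of -0.79 (limma adjusted p = 0.0618). Spp1, the secreted osteopontin, was at 35.6, 41.6 and 50.1 FPKM with HYA and at 128, 77.3 and 101 FPKM with LA (-1.23, -1.84 to -0.61, limma adjusted p = 0.0703). Vtn, the vitronectin that hepatocytes secrete into plasma, had a positive log2 fold change of 0.25 (0.08 to 0.41, limma adjusted p = 0.126). Of 23 enzymes and inhibitors of matrix turnover, 0 passed, and 10 were lower and 2 higher without overlap (median -0.29). Mmp12, the macrophage elastase, was among the lower with -0.78 (limma adjusted p = 0.0663). Timp1, an inhibitor of matrix proteases, was at 1.51, 0.248 and 1.23 FPKM with HYA and at 1.69, 1.95 and 3.33 FPKM with LA (-0.77, -1.39 to -0.15, limma adjusted p = 0.191).

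Of 16 stellate cell and myofibroblast genes, 1 fell, namely Tpm1, a tropomyosin of contractile filaments, at 6.72, 6.47 and 5.93 FPKM with HYA and 10.8, 9.24 and 9.1 FPKM with LA (log2 fold change -0.54, limma adjusted p = 0.0477). The list had a median of -0.25, and 7 genes were lower without overlap. Acta2, the smooth muscle actin that marks myofibroblasts, overlapped between the groups, at 2.06, 2.32 and 1.84 FPKM with HYA and 5.0, 3.66 and 2.12 FPKM with LA (-0.53, -0.96 to -0.11, limma adjusted p = 0.189). Among 21 genes of TGF-β signalling, 0 passed, 4 were lower and 2 higher without overlap, and the median was -0.08. Over all genes tested, 10.4% were lower and 14.8% higher without overlap. Tgfb1, the ligand, differed by -0.01 (-0.24 to 0.23, limma adjusted p = 0.986). That interval leaves out changes of more than 0.24 on the scale of log2(FPKM + 1). Smad3, which carries the signal to the nucleus, differed by -0.21 (-0.44 to 0.02, limma adjusted p = 0.333). Among 14 tested transcripts of the panel of the study's RT-qPCR, its reference gene Rplp0 included, 0 passed and 6 were lower without overlap (median -0.48). That RT-qPCR compared HYA with the unsupplemented high-fat diet and not with LA, so its results answer another comparison.

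Of 11 genes of recruited and lipid-associated macrophages, 2 fell and 11 had a negative log2 fold change (median -0.39). The 2 were Cd63, a tetraspanin of lysosomes, at 1.69, 1.96 and 2.02 FPKM with HYA and 5.31, 3.96 and 4.75 FPKM with LA (-0.97, limma adjusted p = 0.0365), and Cd9, a tetraspanin of the cell surface, at -0.67 (limma adjusted p = 0.038). Both are also expressed by cells other than macrophages. Among 11 markers of resident Kupffer cells, 0 passed, and their median of -0.12 became 0.02 without HYA mouse 3. Clec4f, a marker that is particular to Kupffer cells, had a limma adjusted p of 0.706. Of 21 cytokines, chemokines and their receptors, 0 passed (median -0.19), and of 19 genes of antigen presentation, 0 passed (median -0.05).

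The cell type lists sum up as follows. Summed FPKM of the 13 hepatocyte genes was 40700 to 42100 in HYA livers and 34800 to 35700 in LA livers. The 19 stellate cell and myofibroblast genes, among them genes of contractile filaments such as Tpm1, summed to 71.6 to 81.1 FPKM in HYA and 90.8 to 107 FPKM in LA livers. The 16 genes of recruited and lipid-associated macrophages summed to 166 to 190 and 208 to 229 FPKM, and the 14 bile duct genes to 55.3 to 72.3 and 101 to 158 FPKM. None of these ranges overlapped. Trem2, Ccr2 and Cx3cr1 of the macrophage list had means below 1 FPKM and added little to its sum. The bile duct sum includes Spp1, described above, which made up most of the difference between the groups in that sum. Of the 6 bile duct genes tested, 3 were lower and 0 higher with HYA without overlap. The 11 Kupffer cell genes (181 to 249 and 242 to 255), the 22 sinusoidal endothelial genes (193 to 209 and 203 to 217), the 16 lymphocyte and neutrophil genes (5.53 to 12.1 and 7.62 to 11.7) and the 7 erythroid genes (291 to 572 and 330 to 586) overlapped. Of 9 pancreatic genes 5 were at 0 in the 6 livers, and 6 muscle genes summed to at most 0.981 FPKM. Adipocyte genes summed to 35.4 to 46.3 and 34.3 to 74.6 FPKM. Whether shares of cells had a part in the differences of matrix, macrophage and hepatocyte genes was not tested.

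**Figure D4:**
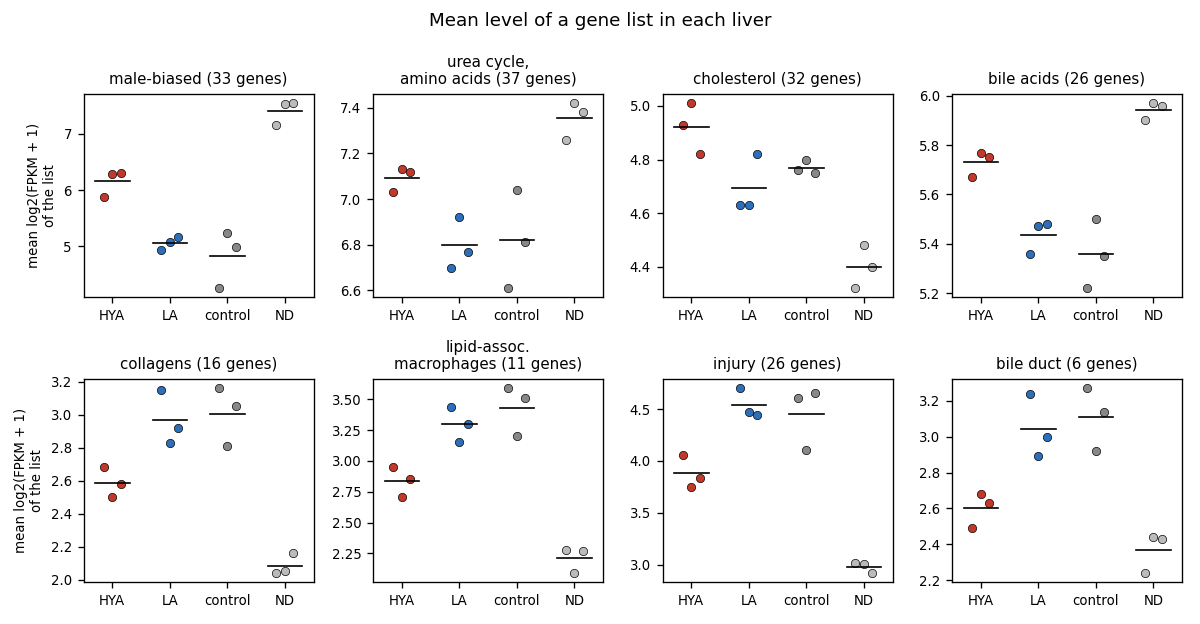
Mean log2(FPKM + 1) of the tested genes of 8 gene lists (vertical axis) in each liver, for the HYA, LA, control and ND groups, with points for single livers and a line at the mean of 3. HYA and LA livers do not overlap for male-biased, urea cycle and amino acid, bile acid, collagen, macrophage, injury and bile duct genes, whereas for cholesterol genes the lowest HYA liver and the highest LA liver are both at 4.82.

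Synthesis and storage of fat held 2 genes that fell. Scd2, a stearoyl-CoA desaturase that introduces a double bond into saturated fatty acids, was at 3.5, 3.15 and 2.84 FPKM with HYA and at 7.08, 5.95 and 7.25 FPKM with LA (-0.90, -1.21 to -0.58, limma adjusted p = 0.0364). It was the single gene to pass of 23 tested genes of lipogenesis (median -0.10). Of these, 10 had a positive and 13 a negative log2 fold change, and 5 were higher and 5 lower without overlap. Scd1, the abundant desaturase of liver, was at 5300, 4990 and 5300 FPKM with HYA and at 8520, 6920 and 7010 FPKM with LA, without overlap (-0.52, -0.77 to -0.27, limma adjusted p = 0.0663). Acaca, which makes malonyl-CoA, differed by -0.47 (limma adjusted p = 0.0594), and Fasn, the fatty acid synthase, by -0.32 (-0.74 to 0.1, limma adjusted p = 0.422). Mogat1, which acylates monoacylglycerol on the way to triglyceride, fell with -0.51 (limma adjusted p = 0.038), as the single gene of 31 of lipid uptake and droplets. Those 31 had a median of -0.03, with 15 positive and 16 negative log2 fold changes, and 5 were higher and 8 lower without overlap. Plin4, a coat protein of lipid droplets, was at 6.56, 7.7 and 6.48 FPKM with HYA and at 17.1, 11.5 and 10.2 FPKM with LA (-0.79, limma adjusted p = 0.0663). Cd36, the fatty acid translocase, was at 78.0, 73.2 and 64.8 FPKM against 96.5, 92.1 and 90.8 FPKM (-0.37, limma adjusted p = 0.0728).

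Fatty acid oxidation genes, many of which PPARα controls, had positive log2 fold changes in 37 of 45 cases. Of the 45 tested, 0 passed, 24 were higher and 1 lower without overlap, and the median of 0.17 was 0.05 with TPM. Relative to the median of all genes, which TPM lowered too, it was 0.15 with FPKM and 0.14 with TPM. Acsl1, which activates fatty acids with coenzyme A, was at 101, 112 and 111 FPKM with HYA and at 77.5, 76.1 and 78.5 FPKM with LA (0.48, 0.26 to 0.69, limma adjusted p = 0.0614). Cpt1a, the carnitine palmitoyltransferase that admits fatty acids to mitochondria, overlapped between the groups (0.25, -0.11 to 0.61, limma adjusted p = 0.47). Of 10 tested receptors and carriers of fatty acids, 0 passed. Ppara was at 49.2, 63.1 and 70.6 FPKM with HYA and at 43.8, 47 and 57.5 FPKM with LA (0.29, -0.13 to 0.71), and Pparg differed by -0.03 (-0.43 to 0.38). The free fatty acid receptor genes Ffar1 and Ffar4 were not among the genes tested.

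Enzymes that act on polyunsaturated fatty acids such as LA showed small differences. Of 21 tested desaturases, elongases and related enzymes, 0 passed. Fads2, the Δ6-desaturase that takes LA as its substrate, was at 852, 1060 and 1230 FPKM with HYA and at 831, 862 and 1070 FPKM with LA (0.18, -0.19 to 0.55, limma adjusted p = 0.641). Fads1, the Δ5-desaturase, differed by 0.10 (-0.09 to 0.29, limma adjusted p = 0.599). Among 17 enzymes of oxylipins, the oxidized derivatives of polyunsaturated fatty acids, 1 rose, namely Cyp4f14, which hydroxylates leukotriene B4 and other fatty acids. It was at 73.0, 78.9 and 74.2 FPKM with HYA and at 45.9, 50.9 and 48.5 FPKM with LA (0.63, 0.39 to 0.86, limma adjusted p = 0.038). Ephx2, the soluble epoxide hydrolase, differed by 0.32 (limma adjusted p = 0.0681).

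Bile acid genes had 1 that rose among 26 tested, with 11 higher and 0 lower without overlap (median 0.24). Slc10a1, the sodium-dependent transporter NTCP that takes bile acids up from portal blood, was at 248, 269 and 282 FPKM with HYA and at 148, 154 and 182 FPKM with LA (0.73, 0.46 to 0.99, limma adjusted p = 0.0365). ND livers had a mean of 286 FPKM and control livers of 154 FPKM. Cyp27a1 and Cyp7b1, enzymes of the acidic pathway of bile acid synthesis, differed by 0.55 (limma adjusted p = 0.062) and 0.88 (limma adjusted p = 0.0726), whereas Cyp7a1, the rate-limiting enzyme of the classical pathway, overlapped at 11.1, 13 and 18.8 FPKM against 7.53, 9.17 and 18.3 FPKM.

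Of 32 tested genes of cholesterol synthesis and uptake, 30 had a positive log2 fold change, 9 were higher without overlap and 0 passed (median 0.26). Stard4, a cholesterol carrier, was at 29.6, 34.7 and 32.4 FPKM with HYA and at 18.6, 21.8 and 26.9 FPKM with LA (0.52, limma adjusted p = 0.0822). In the lipoprotein list, 2 of 32 rose, the carboxylesterase genes Ces3b and Ces3a described above, and the median was 0.16. Lipc, the hepatic lipase, differed by 0.41 (limma adjusted p = 0.067).

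Enzymes of drug metabolism held genes that rose and genes that fell. Of 11 Cyp2c genes, 1 rose (Cyp2c54), and the median was 0.45. Cyp2c50 was at 136, 162 and 144 FPKM with HYA and at 58.2, 76.8 and 87.1 FPKM with LA (1.00, limma adjusted p = 0.0626), while Cyp2c55 had a log2 fold change of -0.43 (limma adjusted p = 0.0973). Of 29 other P450 and esterase genes, 1 fell, Cyp2a22, at -0.81 (limma adjusted p = 0.0411), and the median was 0.20. Cyp2e1, which oxidizes ethanol and fatty acids, was at 2600, 3380 and 3280 FPKM with HYA and at 1400, 1860 and 2180 FPKM with LA (0.78, limma adjusted p = 0.0681). Cyp3a11, an enzyme of broad drug metabolism, was at 257, 236 and 264 FPKM against 353, 316 and 320 FPKM, without overlap (-0.38, limma adjusted p = 0.0597).

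Gstm3, a glutathione S-transferase, had one of the lowest p-values of the comparison and was the single gene to pass of 38 NRF2 targets and glutathione S-transferases (median -0.05). It was at 102, 87.8 and 84.0 FPKM with HYA and at 158, 192 and 188 FPKM with LA (-0.96, -1.22 to -0.70, limma adjusted p = 0.0183). Nqo1, a classical NRF2 target, differed by -0.14 (-0.38 to 0.09, limma adjusted p = 0.535). Of 21 conjugating enzymes of the UGT and SULT families, 0 passed, and 12 were higher and 1 lower without overlap (median 0.27). Sult2a8 was at 164, 183 and 192 FPKM with HYA and at 54.7, 92.8 and 88.7 FPKM with LA (1.21, limma adjusted p = 0.087).

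Secreted products of hepatocytes included 3 more genes that rose. C8b, a chain of complement component C8 in the membrane attack complex, was at 30.1, 28.9 and 30.9 FPKM with HYA and at 14.6, 15.3 and 15.5 FPKM with LA (0.94, 0.70 to 1.18, limma adjusted p = 0.0183), with the lowest p of all genes tested. It was the single gene to pass of 44 complement and coagulation genes, of which 20 were higher and 1 lower without overlap (median 0.16, and 0.04 with TPM). Relative to the median of all genes, that of the list was 0.14 with FPKM and 0.13 with TPM. Serpina3k, a relative of antichymotrypsin, was at 2390, 2050 and 2290 FPKM with HYA and at 1290, 1270 and 1180 FPKM with LA (0.84, limma adjusted p = 0.038), as the single gene to pass of 31 acute phase genes (median 0.00). Its annotation shares 7659 bases on the same strand with Serpina3m (means of 162 FPKM with HYA and 150 FPKM with LA). How reads of that stretch were assigned is not stated. Fetub, a cystatin-family plasma protein, was at 116, 131 and 110 FPKM against 89.2, 79.5 and 87.4 FPKM (0.47, limma adjusted p = 0.0365), as the single gene to pass of 24 hepatokines. Each of the 13 hepatocyte genes had a positive log2 fold change, 10 were higher without overlap and 0 passed (median 0.24). Alb, with 0.19 (0.04 to 0.34, limma adjusted p = 0.174), was among the 10.

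Urea cycle and amino acid breakdown, a main task of hepatocytes, had 25 of 37 tested genes higher with HYA without overlap, 0 lower and 0 past the threshold (median 0.28). Hpd, of tyrosine breakdown, was at 656, 782 and 750 FPKM with HYA and at 393, 514 and 474 FPKM with LA (0.67, limma adjusted p = 0.0941). Asl, the argininosuccinate lyase of the urea cycle, differed by 0.55 (limma adjusted p = 0.0931). For 60 nuclear-encoded subunits of oxidative phosphorylation, the median was 0.08 and turned to -0.04 with TPM, with 0 past the threshold. Relative to the median of all genes, that of the list was 0.06 with FPKM and 0.05 with TPM. Ndufa12, a subunit of complex I outside that list, rose, from 10.5, 8.97 and 8.61 FPKM with LA to 20.7, 16.4 and 17 FPKM with HYA (0.88, limma adjusted p = 0.0268).

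Several groups had no gene past the threshold and medians near that of all genes. These were 33 genes of glucose output and insulin response (0.09), 26 of the endoplasmic reticulum and amino acid stress responses (-0.01), 24 of retinoid metabolism (0.06), 20 of iron handling (-0.06), 20 of sinusoidal endothelium (-0.05) and 13 of the mitochondrial genome (0.07). With TPM the medians of the glucose, retinoid and mitochondrial lists were -0.01, -0.06 and -0.05, or 0.08, 0.03 and 0.04 relative to that of all genes. Those of the stress and iron lists turned to 0.06 without HYA mouse 3 and to 0.02 without HYA mouse 2. Proliferation genes (15, median -0.17) and bile duct genes (6, median -0.40) also had none. The 18 pericentral genes had a median of 0.20 and 1 that fell, Gstm3. Clock genes, which follow the time of day, had a median of 0.20 over 18 genes and 0 past the threshold, and differed within groups. Dbp, whose level swings widely over the day, was at 19.1, 45.5 and 57 FPKM with HYA and at 9.45, 20 and 41.4 FPKM with LA. Whether sampling time had a part in other differences was not tested.

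**Figure D5:**
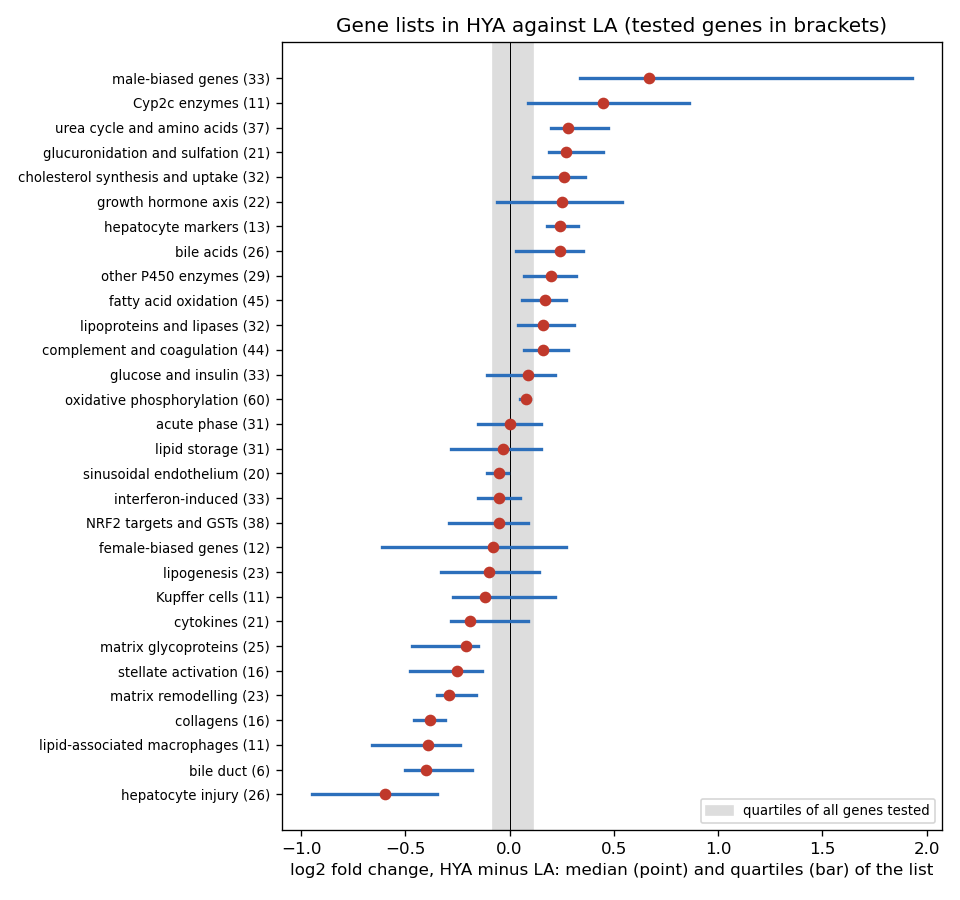
Median (point) and quartiles (bar) of the log2 fold change of HYA against LA for 30 gene lists, ordered by median, with the number of tested genes in brackets and a grey band for the quartiles of all genes tested (-0.08 to 0.11). Male-biased genes lie farthest to the right with a median of 0.67 and injury genes farthest to the left with -0.6.

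For most genes the data bounded the difference between the fatty acids rather than showing one. The bound holds on the scale of log2(FPKM + 1), which understates changes of low genes. The 95% interval of the log2 fold change lay between -1 and 1 for 10609 of the 11083 genes (95.7%), and the median distance from the estimate to its bound was 0.2. The quartiles of the log2 fold change over all genes were -0.08 and 0.11, and 70 genes exceeded 1 in either direction. The remaining genes that rose included Scnn1a, a subunit of the epithelial sodium channel (0.77), Ttc39c (0.98), Notum, a secreted inhibitor of Wnt proteins (0.43), and Urad, of uric acid breakdown (0.61). Those that fell included Gpx7 (-0.51), Tagln2, an actin-binding protein (-0.70), Sdcbp2 (-0.97), Gusb, the lysosomal β-glucuronidase (-0.34), and Samd9l (-0.39). Sdcbp2, at means of 0.656 FPKM with HYA and 2.24 FPKM with LA, was 3.42-fold higher with LA by the ratio of means. Of each of the 54, the 3 HYA values lay on one side of the 3 LA values.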

How the data were processed

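Total RNA of whole liver was prepared with a column kit, and paired ends were sequenced on the Illumina HiSeq platform. The authors deposited FPKM per gene and mouse for 54532 Ensembl genes, with gene length as another column. The submitters' processing notes name fastp, HISAT2 2.0.5, featureCounts 1.5.0-p3 and GRCm38. Annotation release, counting options, strand and library scaling are not given in the sources used here, and although the methods of the study name TPM, the deposited FPKM columns differ in their totals.

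Samples were grouped by their titles. Genes whose mean over 12 livers reached 1 FPKM were analysed as log2(FPKM + 1), where changes of low genes are understated. All 12 livers entered 1 fit in limma 3.58.1 (R 4.3.3, empirical Bayes with trend, two-sided), from which HYA was compared with LA, with Benjamini-Hochberg adjustment over 11083 genes. Thresholds were an adjusted p of 0.05 and an absolute log2 fold change of 1. Folds are ratios of mean FPKM. Whole fragments were recovered from the steps of the FPKM values (tolerance 0.1), and each of the 66 pairs of livers differed by more than sampling noise (chi-square per degree of freedom 10.9 to 214). Each liver was from a separate mouse, and 3 per group limit the precision.

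Of 50 gene lists, 49 had a tested member. The lists, the rule for named genes and the comparison itself were chosen with earlier results of these data known, so list counts are descriptions without a test. Genes named are those past both thresholds, the 10 largest differences in each direction without overlap, up to 4 members of each list with the lowest p and its first 3, the fatty acid receptors, and transcripts measured by RT-qPCR. Other genes past the adjusted p, other Mup, serpin and carboxylesterase relatives, Ndufa12, keratins and single contrasting members were named after their values were seen. Alternatives were another pseudocount, no filter, TPM, median-ratio size factors, voom on recovered fragments, fits of 6 or 9 livers, a replicate block, no fold change threshold and leaving out each liver. Methods were tested on simulated data. Promoters came from RefSeq (GRCm38.p6). A result for a single gene of the cholesterol list is not reported here.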

Additional observations from a re-analysis of the deposited data

How the results depend on the processing

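Numbers of genes past both thresholds (3 higher and 9 lower with HYA than with LA) depended strongly on the setting. With a pseudocount of 0.1 they were 5 and 12, with TPM 5 and 22, with median-ratio size factors 3 and 9, with voom on recovered fragments 10 and 18, and in a fit of the 6 HYA and LA livers 15 and 10. Without a threshold on fold change they were 26 and 28. In a fit of the 9 high-fat-diet livers 0 passed in either direction (limma, 1890 genes at an unadjusted p under 0.05), and without the filter on low values 0 of 26045 genes passed (2911 at an unadjusted p under 0.05, lowest adjusted p 0.06). Leaving out each liver in turn gave 0 to 15 higher and 0 to 14 lower, with 0 in both directions without HYA mouse 2, LA mouse 1 or LA mouse 2. The cause was not tested.

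Same-numbered HYA and LA livers had correlations of their deviations of 0.218, -0.00311 and 0.294. HYA mice 1 and 3 correlated best with their own number, and HYA mouse 2 did not. The labels do not say that equal numbers join animals, so the numbers were not taken as pairs. With a replicate block the counts were 16 higher and 13 lower, and by adjusted p alone 146 and 112. The 54 genes past the adjusted p kept their direction in each of the 20 settings that refitted the model, and 0 of them kept the call in every one. Of 262 other genes followed over these settings, 229 kept the sign of their log2 fold change in each. Medians of the matrix, injury, hepatocyte, male-biased and bile acid lists kept their sign in each setting, while those of the Kupffer cell, lipid storage, oxidative phosphorylation, acute phase and interferon lists, among others, did not. With TPM, which lowered the median of all genes too, that of oxidative phosphorylation was 0.05 relative to all genes. Depth limited Mir6358, which rests on 2 to 7 fragments per HYA liver.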

Other observations

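H19, a long noncoding RNA of fetal liver that is silent in most adult hepatocytes, was at 0.314, 0.157 and 0.312 FPKM with HYA and at 4.02, 1.37 and 2.83 FPKM with LA. Control livers had 1.96 to 5.22 FPKM and ND livers at most 0.0512 FPKM. HYA and LA livers did not overlap, and the log2 fold change of -1.50 (-2.16 to -0.85) just missed the threshold (limma adjusted p = 0.0569). H19 reached the filter of 1 FPKM only through the control and LA livers, where it is high. Its log2 fold change ranged from -3.24 to -1.26 over the other settings. Fam83a differed by -1.02 (limma adjusted p = 0.0614) and was at 0.144 to 0.159 FPKM in ND livers. Ubd, a ubiquitin-like modifier that cytokines induce, was at 6.92, 2.49 and 3.95 FPKM with HYA and at 8.01, 8.81 and 11.8 FPKM with LA (-1.02, limma adjusted p = 0.0835).

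Onecut1, a transcription factor of hepatocytes and bile ducts, was at 10.7, 6.76 and 7.04 FPKM with HYA and at 2.76, 2.37 and 3.02 FPKM with LA (1.28, 0.41 to 2.16, limma adjusted p = 0.131), while ND livers varied between 2.83 and 15.6 FPKM. Hamp, which encodes the iron-regulating hormone hepcidin, ranged from 456 to 965 FPKM with HYA and from 127 to 492 FPKM with LA. The mitochondrial transcript mt-Atp6 was at 162, 266 and 192 FPKM with HYA and at 84.6, 101 and 74.0 FPKM with LA, with a wide interval (1.23, 0.07 to 2.38, limma adjusted p = 0.265).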
